A study of Homo sapiens with 6 samples.

Results

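Growth factor receptors that mark melanoma cell states were followed in WM3248, an established human cell line labelled as VGP primary melanoma. The set holds AXL, EGFR, ERBB2, ERBB3, MET, KIT, PDGFRB, FGFR1, IGF1R and NGFR, chosen by gene symbol, and all 10 were found among the 57688 rows of the expression table. In 3 libraries the cells had received a commercial negative control siRNA (siNC) and in 3 others an siRNA against PPARGC1A (siPGC1a), which encodes the transcriptional coactivator PGC1-alpha. Each siRNA was given at 30 nM with a lipid reagent, and RNA was taken after 48 h. Cells of both groups were fed the same medium, which contained epidermal growth factor, insulin and pituitary extract. Ligand for EGFR was thus supplied in both groups. The study used 1 cell line and 1 siRNA against the target, and separate cultures for the libraries of a group are not stated. The p-values therefore cover the variation seen among these 6 libraries, part or all of which may be technical.

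Apart from NGFR, these genes encode receptor tyrosine kinases, most of which pair on the cell surface when a ligand binds. Paired receptors phosphorylate each other's tails, creating docking sites for adaptors that feed the RAS and PI3K pathways. NGFR, the low-affinity neurotrophin receptor, has no kinase domain and marks neural crest-like melanoma cells. In melanoma the receptors are known to follow cell state: ERBB3 and KIT are typical of cells that keep the melanocyte programme driven by SOX10 and MITF, whereas AXL, EGFR and PDGFRB are typical of dedifferentiated cells with little MITF and have been linked to tolerance of BRAF inhibitors.

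Values were FPKM, which scales fragment counts by gene length and library depth. Comparing levels between genes therefore rests on the length assigned to each gene. In GENCODE v29 the exons of the receptors cover 4150 (NGFR) to 13941 bases (IGF1R). The effect of other lengths on their order and shares was not tested. Libraries held about 25040000 to 26400000 reads, recovered from the steps between low FPKM values, and 23842 to 24738 genes were above 0 in each. PPARGC1A itself was lower in every siPGC1a library (0.4, 0.354 and 0.413 against 0.932, 1.04 and 0.947 FPKM), resting on about 96 to 287 reads a library. Genes with a mean of at least 1 FPKM were compared with limma on log2(FPKM + 1), and a gene was called where its p, adjusted by the Benjamini-Hochberg method over all 12020 genes tested, was under 0.05. By this rule 48.1% of all genes tested were called, 25.6% higher and 22.5% lower in siPGC1a. The receptors have to be read against that high background.

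The receptors spanned more than 3 orders of magnitude in the control cells. NGFR was the most abundant with a mean of 113 FPKM, followed by ERBB3 (57.0), AXL (34.2), ERBB2 (11.1), IGF1R (5.83), MET (2.94), FGFR1 (2.90), EGFR (1.10), PDGFRB (0.944) and KIT (0.0603). Only MET and FGFR1, as neighbours in this order, had overlapping libraries. NGFR alone made up 47.9 to 50.0% of the summed FPKM of the 10 receptors in the control libraries, and ERBB3 and AXL most of the rest. The order changed at 2 places after PPARGC1A siRNA. AXL came level with ERBB3 (40.2 and 39.5 FPKM, with overlapping libraries), and FGFR1 stood above MET (2.94 and 2.38 FPKM, without overlap).

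**Figure D1:**
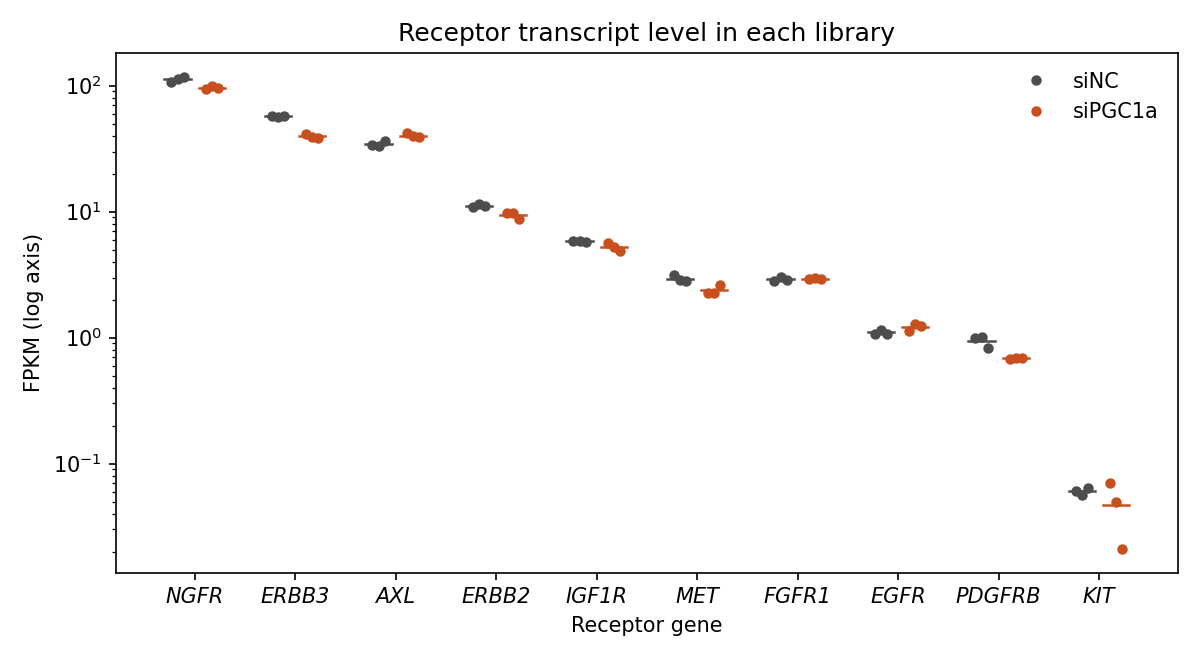
FPKM of each receptor in the 6 libraries, on a log axis, with siNC in grey and siPGC1a in orange; points are libraries and bars are group means (n = 3). ERBB3 falls from 57.0 to 39.5 FPKM and meets AXL, which goes from 34.2 to 40.2 FPKM, while KIT stays under 0.1 FPKM in all libraries.

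Of the 10 receptors 8 passed the filter and 2, KIT and PDGFRB, did not. AXL rose, ERBB3, ERBB2, MET and NGFR fell, and EGFR, FGFR1 and IGF1R did not pass the threshold, so that 5 of 8 were called (62.5%), against 48.1% of all genes tested. The median difference of the 8 was -0.17 on the log2(FPKM + 1) scale, beside 0.01 over all genes tested. Their summed level, with KIT and PDGFRB included, was 222.6, 227.7 and 236.1 FPKM in siNC and 200.4, 201.0 and 193.6 FPKM in siPGC1a, without overlap between the groups. An exact two-sided permutation test gave p = 0.1, the smallest that 3 against 3 can give. In bulk RNA a smaller number of cells carrying a transcript and less transcript per cell cannot be told apart.

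**Figure D2:**
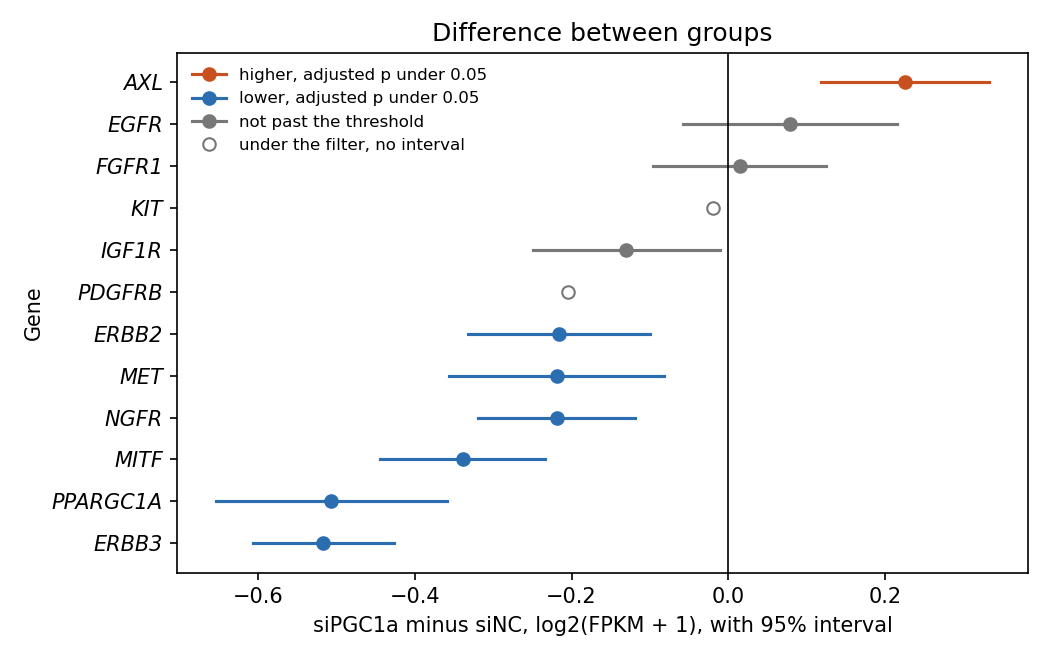
Difference in log2(FPKM + 1), as siPGC1a minus siNC, for the 10 receptors, MITF and the targeted PPARGC1A, with limma's 95% interval (n = 3 per group). AXL is the receptor called higher (0.23), ERBB3 has the largest fall (-0.52), and KIT and PDGFRB were under the filter and have no interval.

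The ERBB family gave the receptor with the largest change. ERBB3, which binds neuregulins, has little kinase activity of its own and signals mainly through its partners, was at 57.6, 56.0 and 57.4 FPKM in siNC and at 41.2, 39.1 and 38.3 FPKM in siPGC1a. The lowest control library was well above the highest siPGC1a library. The mean fell from 57.0 ± 0.863 to 39.5 ± 1.53 FPKM (SD, n = 3), and so fell by 30.6% (log2 difference -0.52, SE 0.0403, limma adjusted p = 1.26e-05), and about 8855 to 13739 reads stood behind each value. Of all genes tested, 4.67% were called lower with a ratio at or below that of ERBB3. ERBB2, the ligandless member that is the preferred partner of ERBB3, was at 10.8, 11.4 and 11.1 FPKM in siNC and at 9.82, 9.77 and 8.75 FPKM in siPGC1a. Its groups did not overlap, and the mean fell from 11.1 ± 0.318 to 9.44 ± 0.604 FPKM (SD, n = 3; log2 difference -0.22, SE 0.0519, limma adjusted p = 0.0071). Exons of ERBB2 share 571 bases with MIEN1 (25.2 and 27.2 FPKM, limma adjusted p = 0.147) and 194 bases with PGAP3, which fell from 8.20 to 6.40 FPKM, both on the other strand. How the counting treated strand is not given in the sources used here, so reads from these stretches cannot be assigned with certainty.

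The partners did not fall by the same factor. The ratio of ERBB3 to ERBB2 within a library was 5.32, 4.89 and 5.17 in siNC and 4.2, 4.01 and 4.37 in siPGC1a, without overlap (exact permutation p = 0.1). EGFR, the founding member of the family, stood low at 1.07, 1.15 and 1.08 FPKM in siNC and 1.13, 1.28 and 1.25 FPKM in siPGC1a. These ranges overlapped, and the difference of 0.08 on the log2(FPKM + 1) scale had a 95% interval of -0.06 to 0.22 (limma adjusted p = 0.311). ERBB4, the remaining family member, was at 0.0803 FPKM in siNC and 0.041 FPKM in siPGC1a, under the filter.

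NGFR binds nerve growth factor and the other neurotrophins. It read 106.7, 113.3 and 118.1 FPKM in siNC and 94.5, 99.8 and 95.4 FPKM in siPGC1a. All siPGC1a libraries lay under all control libraries, though the gap between the nearest values was narrower than the range of the controls. The mean went from 113 ± 5.7 to 96.6 ± 2.84 FPKM (SD, n = 3), and so fell by 14.3% (log2 difference -0.22, SE 0.0448, limma adjusted p = 0.00302). Its share of the summed receptor FPKM overlapped between groups (47.9 to 50.0% and 47.2 to 49.7%). Of the kinases that bind neurotrophins, NTRK2 and NTRK3 were close to absent, at 0.113 and 0.00267 FPKM in siNC. SORT1, the coreceptor for uncleaved neurotrophins, was called lower (12.8 to 9.07 FPKM; chosen after its values were seen).

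AXL was the receptor that rose. It is a kinase of the TAM family that binds GAS6 and PROS1, and it was at 33.5, 33.0 and 36.1 FPKM in siNC and at 42.1, 39.7 and 38.9 FPKM in siPGC1a. The groups did not overlap, and the mean rose from 34.2 ± 1.66 to 40.2 ± 1.65 FPKM (SD, n = 3; ratio 1.17, log2 difference 0.23, SE 0.0477, limma adjusted p = 0.00363). TYRO3, another TAM kinase, rose as well, from 10.2 to 12.3 FPKM (limma adjusted p = 0.00246), whereas MERTK, the third, was under the filter at 0.593 and 0.617 FPKM.

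Melanoma cells are often placed on an axis from high MITF to high AXL. MITF, the master regulator of the melanocyte lineage, was at 7.29, 7.09 and 7.34 FPKM in siNC and at 5.82, 5.35 and 5.39 FPKM in siPGC1a, and it was called lower (limma adjusted p = 0.000335). The ratio of AXL to MITF within a library was 4.60, 4.66 and 4.92 in siNC and 7.23, 7.42 and 7.22 in siPGC1a. On the log2(FPKM + 1) scale the AXL to MITF difference was 0.565 larger in siPGC1a, without overlap (exact permutation p = 0.1). The AXL to ERBB3 ratio moved from 0.601 ± 0.0254 to 1.02 ± 0.00577 (SD, n = 3; exact permutation p = 0.1). AXL thus had the higher FPKM of the pair in 3 of 3 siPGC1a libraries and in 0 of 3 control libraries. The siPGC1a ratios were only 1.01 to 1.02, and so small a lead depends on the lengths assigned to the 2 genes.

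**Figure D3:**
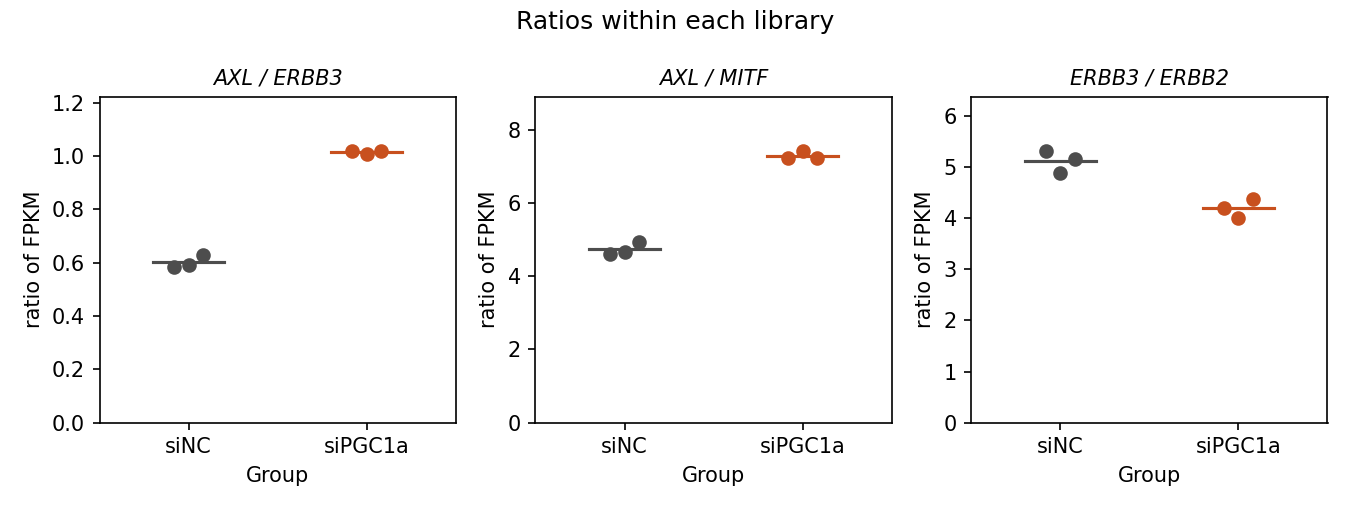
Ratios of FPKM within each library, by group, with axes from 0; points are libraries and bars are means (n = 3). AXL / ERBB3 lies between 0.583 and 0.63 in siNC and at 1.01 to 1.02 in siPGC1a, AXL / MITF is higher and ERBB3 / ERBB2 lower in siPGC1a, and none of the 3 ratios overlaps between groups.

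MET, the receptor for hepatocyte growth factor, was at 3.14, 2.87 and 2.79 FPKM in siNC and at 2.27, 2.28 and 2.60 FPKM in siPGC1a. It fell from 2.94 ± 0.184 to 2.38 ± 0.185 FPKM (SD, n = 3; log2 difference -0.22, SE 0.0612, limma adjusted p = 0.0149), on about 402 to 584 reads a library. Leaving out siNC replicate 1 or siPGC1a replicate 1 ended this call (adjusted p = 0.0559 and 0.0517), as did testing with no filter on low genes (0.0645), in a range of 0.00892 to 0.0645 over all settings tried.

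PDGFRB and KIT, which encode related kinases with split catalytic domains, were both too low to enter the main comparison. PDGFRB, the receptor for PDGF-B and PDGF-D, was at 0.997, 1.01 and 0.826 FPKM in siNC and at 0.674, 0.69 and 0.694 FPKM in siPGC1a. Its groups did not overlap, and the siPGC1a values were much closer together than the controls (0.944 ± 0.102 and 0.686 ± 0.0106 FPKM; SD, n = 3; exact permutation p = 0.1). In the fit without a filter its adjusted p in limma was 0.0859, where 15.2% of 30981 genes were called. KIT, the receptor for stem cell factor and a receptor of normal melanocytes, was at 0.061, 0.056 and 0.064 FPKM in siNC and 0.07, 0.05 and 0.021 FPKM in siPGC1a. These values come from about 3 to 10 reads a library and overlap between groups (exact permutation p = 0.5). What difference could be detected with so few reads was not tested.

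FGFR1 and IGF1R, receptors for fibroblast growth factors and for insulin-like growth factors, were intermediate in level. FGFR1 was at 2.82, 3.01 and 2.87 FPKM in siNC and at 2.93, 2.998 and 2.89 FPKM in siPGC1a. The siPGC1a values lay within the range of the controls, and the difference of 0.01 on the log2(FPKM + 1) scale had a 95% interval of -0.10 to 0.13 (limma adjusted p = 0.824). IGF1R was at 5.90, 5.82 and 5.79 FPKM in siNC and at 5.62, 5.28 and 4.86 FPKM in siPGC1a. Its groups did not overlap, but the siPGC1a libraries were spread out, and the difference of -0.13 (95% interval -0.25 to -0.01) did not pass after adjustment (limma adjusted p = 0.069). The difference was -0.17 without siPGC1a replicate 1 (adjusted p = 0.0325) and -0.08 without siPGC1a replicate 3 (adjusted p = 0.201), which were the ends of the range of adjusted p over settings. Counting a gene as apart where its groups did not overlap, as for IGF1R, took in 6 of the 8 receptors tested, against 57.2% of all genes tested.

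The 3' UTRs of the receptors were searched for the 6-base word ACACCT, which earlier work on these data had picked out as more common in genes lower in siPGC1a. Here 44.9% of genes called lower, 20.3% of those called higher and 30.2% of all tested genes with a searched 3' UTR held it, with median 3' UTR lengths of 1455, 953 and 1135 bases. Because the word was picked from these same data, the shares are a description and no separate test of it. Among the receptors that fell, ERBB3 held it at 1 place and ERBB2, MET and NGFR at 0. AXL, which rose, held it at 1 place as well. Sites of these 2 receptors are shown because they moved in opposite directions; the sequences are 5' to 3' from GENCODE v29 transcripts, with the word in capitals.
ERBB3: gcttcagctgcACACCTctgtccccttg
AXL: tctaatgttggACACCTttaggttcttt
The word stood 1340 bases after the stop codon of ERBB3, in a 3' UTR of 1450 bases, and 1425 bases after that of AXL, in one of 1862 bases. The long 3' UTRs of EGFR and IGF1R held it at 4 and 5 places, KIT held it at 1, and PDGFRB and FGFR1 at 0. No sequence of the siRNA was used here, and whether it pairs with these sites was not tested.

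Promoter windows from 250 bases before to 50 bases after the start site, as RefSeq gives them on GRCh38.p14, were found for 7 of the 10 receptors (AXL, EGFR, ERBB2, MET, KIT, PDGFRB and IGF1R; 9 windows in all). They were searched on both strands for CACGTG and CATGTG, the E-box forms that MITF can bind. CACGTG was found only in MET, at 1 place, beginning 4 bases into the transcript. The site is shown on the strand of MET with the motif in capitals.
MET: aggcagacagaCACGTGctggggcgggc
CACGTG was held by 9.5% of the windows of tested genes and 7.3% of all windows. CATGTG, held by 7.4% and 11.1% of them, was found in the second windows of AXL, which rose, and EGFR, which did not pass the threshold. Neither form was in the windows of ERBB2, which fell, or of KIT, PDGFRB and IGF1R. A match of letters is a description and does not show that a factor binds there.

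Ligand transcripts for these receptors changed in both directions. Of 32 listed ligands 10 passed the filter, of which 3 rose, 5 fell and 2 did not pass, beside 48.1% called among all genes tested. Among ligands of EGFR, TGFA rose from 71.1 ± 2.98 to 88.7 ± 2.47 FPKM and HBEGF from 14.0 ± 0.364 to 17.5 ± 1.08 FPKM (SD, n = 3; limma adjusted p = 0.000275 and 0.000933), while EGF fell from 2.02 to 1.48 FPKM (0.00918, but 0.0594 with no filter). GAS6, the ligand of AXL, fell from 5.87 ± 0.0734 to 4.49 ± 0.464 FPKM (SD, n = 3; limma adjusted p = 0.00203), opposite to its receptor. PROS1, which also binds the TAM kinases, was at 2.57 and 2.29 FPKM (limma adjusted p = 0.238).

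The 2 fibroblast growth factors measured went opposite ways. FGF2 was at 6.68, 6.29 and 6.54 FPKM in siNC and 8.36, 8.20 and 8.70 FPKM in siPGC1a, and rose (limma adjusted p = 0.000318). FGF1 was at 4.83, 4.53 and 5.02 FPKM in siNC and 3.32, 3.35 and 3.35 FPKM in siPGC1a, and fell (limma adjusted p = 0.000146). KITLG, the ligand of the nearly absent KIT, fell from 4.84 to 3.54 FPKM (limma adjusted p = 0.00198). PDGFB fell from 7.28 to 6.45 FPKM (limma adjusted p = 0.0272), a call lost without siNC replicate 2 (0.0986), without siNC replicate 3 (0.105), without siPGC1a replicate 1 (0.064), without siPGC1a replicate 2 (0.064) and with no filter (0.0679), in a range of 0.0125 to 0.105. BDNF, a neurotrophin, was at 1.01 and 1.09 FPKM (limma adjusted p = 0.525). Ligands of the other receptors were low: NRG1 and NRG2, which bind ERBB3, stood at 0.112 and 0.512 FPKM in siNC, HGF at 0.004 and IGF1 at 0.014 FPKM.

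**Figure D4:**
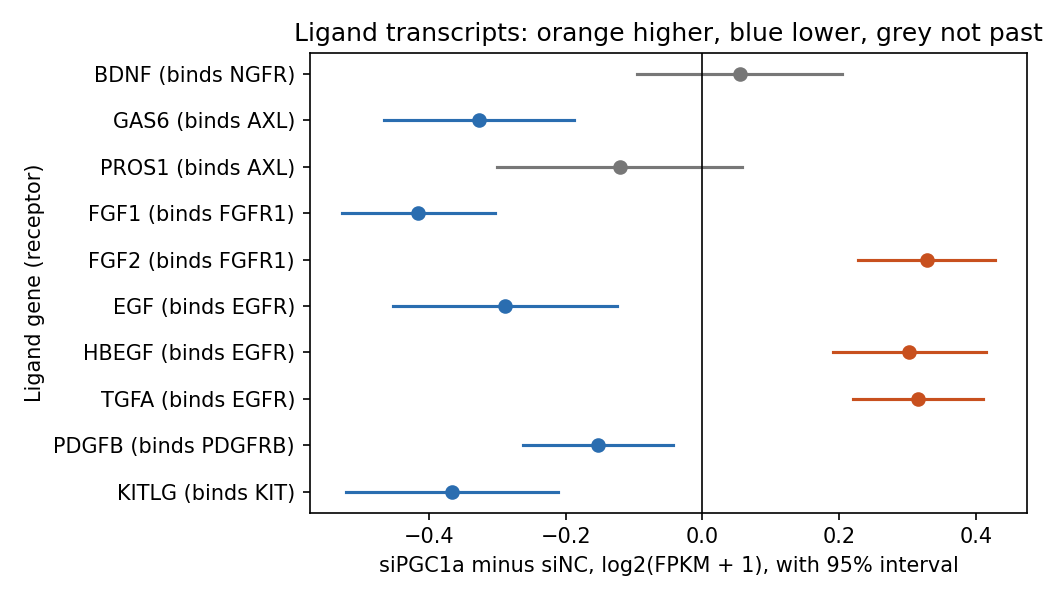
Difference in ligand transcripts (siPGC1a minus siNC, log2(FPKM + 1)) with limma's 95% interval, for the 10 ligands with a mean of at least 1 FPKM, each named with its receptor (n = 3 per group). TGFA, HBEGF and FGF2 lie above 0 and GAS6, EGF, FGF1, PDGFB and KITLG below it; the intervals of PROS1 and BDNF cross 0.

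Other receptor tyrosine kinases outside the Eph family were mostly low, with 1 of 31 at 0 in every library and 10 past the filter. Of these 1 rose, 4 fell and 5 did not pass, so that the share called was close to the 48.1% of all genes tested. The rise was TYRO3, given above. DDR1 and DDR2, receptors for collagen, fell to ratios of 0.743 and 0.793 from 20.5 and 13.8 FPKM, and PTK7, a pseudokinase of Wnt signalling, from 31.7 to 27.4 FPKM (limma adjusted p = 0.000384, 0.000445 and 0.00355). The median of the 10 was -0.12 on the log2(FPKM + 1) scale, beside 0.01 over all genes tested.

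Adaptors that dock to activated receptors were split, with 7 of 22 measured higher, 7 lower and 8 not past the threshold; without siNC replicate 1, 4 were lower. Among all genes tested 25.6% were higher and 22.5% lower. Of the docking proteins that recruit PI3K and SHP2, GAB2 fell from 7.43 ± 0.171 to 4.39 ± 0.0358 FPKM and GAB1 from 3.59 ± 0.0705 to 2.21 ± 0.198 FPKM (SD, n = 3; limma adjusted p = 5.5e-06 and 9.88e-05). GRB2, which links receptors to the RAS activator SOS, fell from 24.6 to 19.9 FPKM (0.000288). IRS2, a docking protein of the insulin and IGF1 receptors, rose from 7.15 to 9.63 FPKM, GRB10, which restrains those receptors, from 6.49 to 8.03 FPKM, and the PI3K catalytic subunit PIK3CB from 5.24 to 7.02 FPKM (limma adjusted p of at most 0.000555 for each).

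Genes that restrain receptors or govern their turnover gave 6 higher, 3 lower and 5 not past of 14 measured, beside 25.6% higher and 22.5% lower among all genes tested. PTPN1, a phosphatase that removes phosphate from receptor tails, rose from 26.0 ± 0.328 to 35.0 ± 0.547 FPKM (SD, n = 3; limma adjusted p = 2.49e-05), SH3KBP1, an adaptor of receptor endocytosis, from 37.0 to 46.7 FPKM and LRIG3 from 2.46 to 3.20 FPKM. CBLB, a ubiquitin ligase for activated receptors, fell from 4.24 to 3.28 FPKM, and PTPRJ, a receptor-type phosphatase, from 22.4 to 19.0 FPKM. CBL was called lower (6.17 to 5.23 FPKM, limma adjusted p = 0.0397), a call lost with no filter, with quantile scaling and without each of siNC replicates 1, 2 and 3 and siPGC1a replicates 2 and 3, in a range of 0.00761 to 0.165.

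Sheddases, coreceptors and binding proteins had 13 of 20 measured members lower, 2 higher and 5 not past, beside 22.5% lower and 25.6% higher among all genes tested. Their median was -0.24 on the log2(FPKM + 1) scale, beside 0.01 over all genes tested. Of the secreted proteins that hold insulin-like growth factors, IGFBP5 fell from 51.5 ± 0.928 to 25.2 ± 1.52 FPKM and IGFBP4 from 88.5 ± 3.11 to 53.5 ± 0.932 FPKM (SD, n = 3; limma adjusted p = 8.05e-07 and 1.84e-06). With them, 6 of the 6 measured IGFBP genes were called lower, also under both other scalings, though 5 of 6 without siNC replicate 2 or siNC replicate 3 and 4 of 7 with no filter; this family was singled out after its values were seen. ADAM9, a membrane protease, fell from 14.0 ± 0.495 to 7.49 ± 0.302 FPKM (SD, n = 3; limma adjusted p = 2.39e-06). NRP2, a coreceptor for semaphorins and vascular growth factors, and FGFRL1, an FGF receptor without a kinase, rose to ratios of 1.23 and 1.32 from 29.2 and 11.2 FPKM.

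The identity of the cells was checked against marker genes. SOX10 (246 and 230 FPKM), S100B (802 and 924 FPKM) and DCT (394 and 253 FPKM) were abundant in siNC and siPGC1a, whereas the pigment cell genes PMEL (5.29 and 3.77 FPKM), MLANA (1.86 and 1.02 FPKM), TYR (1.44 and 1.13 FPKM) and TYRP1 (1.08 and 0.907 FPKM) were low. Of 7 measured lineage markers 4 were called lower (MITF, PMEL, MLANA and DCT), beside 22.5% of all genes tested. S100B was the 1 called higher (limma adjusted p = 0.000841, but 0.0515 with no filter), beside 25.6% of all genes tested. SOX10 and TYR did not pass (limma adjusted p = 0.111 and 0.0517), though TYR did not overlap between groups.

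Markers of other cell types that carry these receptors were mostly low. Of the 7 fibroblast markers 4 of 5 measured were called lower, beside 22.5% of all genes tested. The 7 summed to 47.3 to 47.5 FPKM in siNC and 39.2 to 41.4 FPKM in siPGC1a. THY1, which led this sum (28.5 and 26.4 FPKM), did not pass in the main fit (limma adjusted p = 0.0819). In siNC the others were LUM at 8.51, FAP at 5.19, COL1A1 at 2.95, COL3A1 at 1.82, PDGFRA at 0.384 and DCN at 0.13 FPKM. The 4 pericyte markers, led by ACTA2 (16.8 and 15.9 FPKM), summed to 20.9 to 21.2 FPKM and 18.7 to 20 FPKM, and 0 of the 2 measured were called. Both sums were lower in siPGC1a, as was PDGFRB, a receptor of fibroblasts and pericytes. Whether these differences are linked was not tested. Keratinocyte markers summed to 20.6 to 21.5 FPKM in siNC and 20.7 to 25.9 FPKM in siPGC1a, nearly all of it KRT10 (20.6 and 22.4 FPKM), with KRT1 at 0 in every library. Of 4 listed endothelial markers 3 were found in the expression table, and these, led by VWF, summed to at most 0.194 FPKM. Immune and mast cell markers summed to at most 3.59 FPKM, with LYZ the most abundant (1.73 and 0.914 FPKM) and PTPRC at 0 in every library.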

How the data were processed

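RNA sequencing libraries of siNC (n = 3) and siPGC1a (n = 3) were compared. The deposited table gave FPKM per gene and library, computed by the authors. The submitters' processing notes list STAR, Picard, featureCounts, DESeq2 and hg19, giving neither versions nor roles. Library depth (about 25040000 to 26400000 reads) was recovered from miRNA genes, whose low values step by what 1 read is worth: of values up to 20 reads, 98.33 to 100.0% were whole to 0.1 read at the depth that maximised this share, over 58 to 70 values a library; the share that chance gives after such a search was not computed. Read numbers per receptor use GENCODE v29 exon lengths, of another build, and are approximate.

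The main test was limma-trend (limma 3.58.1, R 4.3.3) on log2(FPKM + 1), with all 6 libraries, no replicate block and Benjamini-Hochberg adjustment over 12020 genes (mean FPKM of at least 1, and PPARGC1A); tests were two-sided with a threshold of 0.05, and this scale understates the change of low genes. The code was tested on simulated data. Levels are mean FPKM ± SD. Named genes were the receptors, PPARGC1A, MITF, ligands with a mean of at least 1 FPKM, up to 3 called members of each other list with the largest rise and fall, without overlap, and for other cell types the marker with the highest level. A few listed genes, and 1 marker list that rests on them, are not reported here. The receptors and lists were chosen with earlier results of these data known. Replicate numbers were not taken to pair the libraries: deviations of same-numbered libraries correlated at 0.077, 0.261 and -0.058. Alternatives changed the pseudocount, filter, scaling, variance trend, replicate block and libraries used.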

Additional observations from a re-analysis of the deposited data

How the results depend on the processing

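Under 14 other settings AXL was called higher and ERBB3 lower in every one, with log2 differences of 0.164 to 0.264 and -0.576 to -0.494; NGFR (-0.293 to -0.186) and ERBB2 (-0.247 to -0.167) also stayed past the threshold in each. The number of receptors called lower was 3 or 4, and 1 was called higher throughout. With a filter of mean FPKM 5, which tests fewer genes, 1607 genes were called lower and 2519 higher, against 2707 and 3075. Ligands called lower numbered 3 with no filter and 2 with the filter of 5, against 5, and adaptors called lower 4 in both and without siNC replicate 1, against 7. At the filter of 5 the calls missing were of genes no longer tested: MET, the ligands EGF, FGF1 and KITLG, and the adaptors GAB1, SOS1 and FRS3. The AXL to MITF log2 ratio, 0.565 as reported, was 0.618 and 0.608 with pseudocounts of 0.1 and 0.25 and 0.501 with quantile scaling; the pseudocount acts by damping low genes, and for the scaling the cause was not tested. FGFR1 changed sign without siNC replicate 1 (adjusted p = 0.998); the fits that left out 1 library gave it -0.000219 to 0.0352. Median-of-ratios scaling moved the median of all genes to -0.0014 and quantile scaling left it at 0.0072. With the replicate block 3253 genes were called higher and 2826 lower, the receptors called were again 1 higher and 4 lower, and PPARGC1A stood at -0.507, as without the block. Its log2 difference was -1.14 and -0.937 with pseudocounts of 0.1 and 0.25. KIT rests on about 3 to 10 reads a library, which limits what can be seen of it.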
